A study of Mus musculus with 12 samples.

Results

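The aminoacyl-tRNA synthetases were described in proinflammatory bone marrow-derived macrophages (BM-Mɸs) with and without ErbB4. Members were the genes whose symbol is a capital letter followed by ars and at most a 1 or a 2, together with Eprs, Farsa, Farsb and the scaffolds Aimp1 and Aimp2, and they came to 38 of the 22243 genes in the table. Of these, 19 encode cytosolic synthetases (the Farsa and Farsb subunits counted separately), 17 encode mitochondrial synthetases and 2 encode scaffolds. The cytosolic asparagine enzyme Nars was not analysed here. BM-Mɸs were grown with M-CSF from C57Bl/6 mice, 1 ErbB4myeKO and 1 ErbB4FF mouse from each of 6 litters, and RNA was sequenced from 1 culture per mouse. ErbB4myeKO mice carry floxed Erbb4 with LysMCre, which is driven from the lysozyme locus Lyz2 in myeloid cells, and ErbB4FF mice carry the floxed gene alone. IFN-γ at 100 U/ml was given to all 12 cultures for 16 h, followed by LPS at 100 ng/ml for 6 h, so no unstimulated level was measured. The comparison asked which transcripts differ between activated macrophages of these genotypes.

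Each synthetase joins an amino acid to its matching tRNA, and the charged tRNA then carries the amino acid to the ribosome. Mitochondria translate their own transcripts and mostly use a separate set of nuclear-encoded enzymes, which carry the suffix 2. In the cytosol several synthetases are held in a multisynthetase complex by scaffold proteins, and cytosolic Wars, the tryptophan enzyme, is best known in macrophages as an interferon-induced gene. Many cytosolic synthetase genes are also described as targets of ATF4, a transcription factor translated under amino acid shortage and other stresses.

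A motif that ATF4 binds was searched for near the start of transcription, and the promoters that hold it are printed because they include those of Yars and Iars, the members with the smallest unadjusted p in the comparison of genotypes, neither of which passed adjustment. RefSeq windows from 250 bases before to 50 bases after the start (GRCm38.p6) matched 28 members by symbol, and Wars was not among those searched. The letters TGATGNAA, or TTNCATCA on the other strand, occurred in 5 of them, Aars, Gars, Iars, Tars and Yars, beside 4.51% of the 27025 genes with such a window. All 5 are cytosolic enzymes listed as ATF4 targets, of which 7 had a window, and Eprs and Sars are the listed genes whose window lacked the letters. None of the 5 other cytosolic members with a window held them, and none of the 14 mitochondrial members did. The stretches run 5′ to 3′ on the strand of the gene, from 120 bases before to 30 bases after the start, with the 8 matching letters in capitals. The Aars enzyme charges alanine tRNA and its stretch is at chr8:111033722-111033871 (plus strand), Gars serves glycine at chr6:55037881-55038030 (plus), Iars isoleucine at chr13:49682010-49682159 (plus), Tars threonine at chr15:11399629-11399778 (minus) and Yars tyrosine at chr4:129189783-129189932 (plus).
Aars: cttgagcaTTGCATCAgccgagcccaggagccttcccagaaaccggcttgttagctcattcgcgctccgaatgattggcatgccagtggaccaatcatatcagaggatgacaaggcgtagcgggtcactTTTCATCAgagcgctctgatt
Gars: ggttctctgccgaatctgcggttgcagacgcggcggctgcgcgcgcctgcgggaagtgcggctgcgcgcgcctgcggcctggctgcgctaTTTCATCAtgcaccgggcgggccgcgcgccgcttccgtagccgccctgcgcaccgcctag
Iars: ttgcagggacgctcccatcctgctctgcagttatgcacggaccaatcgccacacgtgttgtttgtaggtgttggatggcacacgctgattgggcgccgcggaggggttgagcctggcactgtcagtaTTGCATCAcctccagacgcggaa
Tars: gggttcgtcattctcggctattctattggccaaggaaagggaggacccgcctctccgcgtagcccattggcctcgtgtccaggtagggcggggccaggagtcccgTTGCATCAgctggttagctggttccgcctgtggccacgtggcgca
Yars: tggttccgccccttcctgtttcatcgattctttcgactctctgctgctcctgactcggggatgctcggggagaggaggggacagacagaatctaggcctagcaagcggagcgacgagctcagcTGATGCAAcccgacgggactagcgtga
Aars held 2 matches, at -112 and 10 from the start, and the match began at -30 in Gars, 8 in Iars, -15 in Tars and 4 in Yars. Of the interferon motifs, that of the interferon-stimulated response element (GAAA and GAAA with 2 bases between them, on either strand) occurred in 1 member, Qars, beside 3.99% of genes, and the gamma-activated site TTCNNNGAA, which reads the same on both strands, in 3 members, Aars, Kars and Nars2, beside 9.55% of genes. A match of letters is a description of the window and shows no binding.

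Levels are in TPM, transcript abundance per length scaled to a fixed total per library, so that genes can be compared within a library. Rars, the arginine enzyme of the multisynthetase complex (ENSMUSG00000018848, chr11:35808381-35834506 in GRCm38), had the highest level of all members in 12 of 12 libraries, between 84.3 and 110 TPM with a median of 96.4 in libraries labelled ErbB4myeKO and between 83.6 and 123 with a median of 96.1 in those labelled ErbB4FF. Kars, the lysine enzyme, followed at a mean of 47.0 TPM, between 28.4 and 63.8 (median 47.0) in the former and 33.6 and 59.5 (median 47.4) in the latter. Aars had a mean of 37.0 TPM, between 31.6 and 47.1 (median 37.2) and between 29.3 and 47.3 (median 34.8). Kars exceeded Aars in 9 of 12 libraries and Aars exceeded Gars (36.5 TPM) in 7 of 12, so that the order after Rars was not fixed between libraries. The histidine enzyme Hars (32.6 TPM) and the aspartate enzyme Dars (26.9 TPM) came next.

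Most mitochondrial enzymes lay well below their cytosolic counterparts. The lowest means of all members were those of the mitochondrial valine, methionine and asparagine enzymes, with 0.0659 TPM for Vars2, 0.126 TPM for Mars2 and 0.309 TPM for Nars2. Vars2 exceeded 0.01 TPM in only 2 libraries, ErbB4myeKO of litter 1 (0.392 TPM) and ErbB4FF of litter 6 (0.399 TPM). Mars2 ranged from 0.0731 to 0.325 TPM (median 0.137) in libraries labelled ErbB4myeKO and from 0.0267 to 0.176 TPM (median 0.0909) in those labelled ErbB4FF, and Nars2 from 0 to 0.709 (median 0.202) and from 0 to 0.671 (median 0.295). Of 13 amino acids whose cytosolic and mitochondrial enzymes carry the same letter, the cytosolic gene was higher in 12 of 12 libraries for 7.

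Serine and cysteine went the other way. The cytosolic serine enzyme Sars averaged 1.77 ± 0.974 TPM (SD, n = 12 libraries) and mitochondrial Sars2 3.23 ± 1.04 TPM, and Sars was below Sars2 in 12 of 12 libraries. Cytosolic Cars averaged 0.899 ± 0.501 TPM and was higher than mitochondrial Cars2 (1.68 ± 1.06 TPM) in 3 of 12 libraries. The tyrosine enzymes were level, with Yars above Yars2 in 6 of 12 libraries and a ratio of the means of 1.07. These are levels of the transcripts marked as principal only, which held between 59.0% and 74.7% of all TPM in a library.

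**Figure D1:**
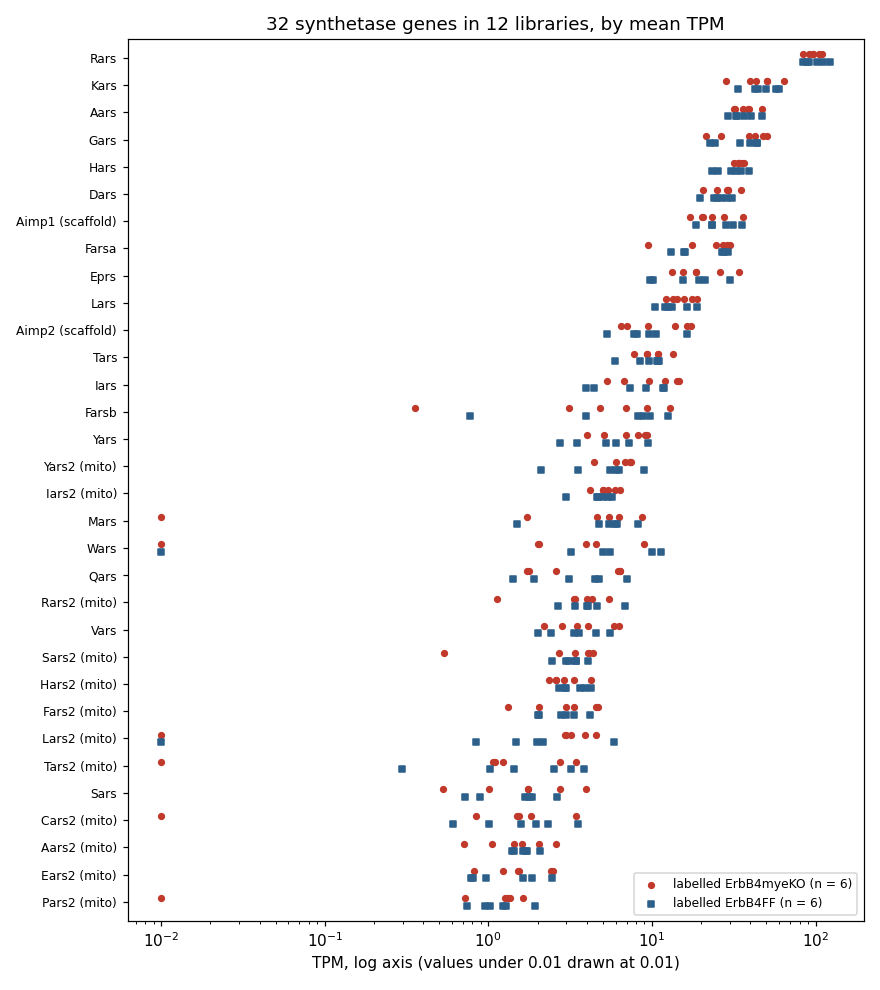
TPM of the 32 members that averaged 1 TPM or more (rows, ordered by mean) on a log axis, with 1 point per library for the 6 libraries labelled ErbB4myeKO (circles) and the 6 labelled ErbB4FF (squares). Values under 0.01 TPM are drawn at 0.01, Rars lies at the top between 83.6 and 123 TPM, and the points of the 2 genotypes overlap in every row.

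Genotype was compared within litters on log2(TPM + 0.5), with genes of at least 1 TPM on average tested in limma with litter as a block. Of the 38 members 32 passed this filter, and 1 cytosolic and 5 mitochondrial enzymes did not. No member reached an adjusted p (Benjamini-Hochberg) under 0.05, and neither did any of the 8780 genes tested (0%), with 721 of these (8.21%) at an unadjusted p under 0.05. At that unadjusted level 2 of 32 members were higher in libraries labelled ErbB4myeKO (Yars and Iars), beside 3.83% of all genes, and 0 were lower, beside 4.38%. Over both directions this was 6.25% of the members tested, no more than the share of all genes. The groups of 6 did not separate for any member, as they did for 0.0456% of all genes.

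Yars and Iars had the smallest p among members. Yars (ENSMUSG00000028811, chr4:129189760-129219607) measured 8.19, 5.09, 6.94, 4.02, 9.26 and 9.02 TPM in libraries labelled ErbB4myeKO of litters 1 to 6, and 7.28, 3.49, 5.24, 2.73, 9.39 and 6.06 TPM in their ErbB4FF littermates. It was higher in the ErbB4myeKO library in 5 of 6 litters and almost level in litter 5, while the groups overlapped because litters differed more than genotypes. Its log2 fold change was 0.34 (SE 0.11, limma p = 0.0163, adjusted p = 0.603), and the exact two-sided permutation p over within-litter swaps was 0.0625, where 0.0312 is the smallest possible. Without litter 6 no member had an unadjusted p under 0.05.

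Iars (ENSMUSG00000037851, chr13:49682100-49734267), which belongs to the multisynthetase complex, measured 11.9, 9.56, 14.3, 5.29, 6.79 and 14.7 TPM in libraries labelled ErbB4myeKO and 11.6, 4.40, 11.8, 3.95, 7.31 and 9.26 TPM in those labelled ErbB4FF. Litters 2 and 6 had the widest gaps, and litter 5 went the other way. Its log2 fold change was 0.38 (SE 0.16, limma p = 0.0439, adjusted p = 0.603, exact permutation p = 0.0938). Without litter 2 it was 0.24, and the unadjusted p rose over 0.05 without litter 2, 3, 4 or 6 and under 4 other alternatives. Iars has 3 principal transcripts in the table, of which 2 carried nearly all of its TPM and traded places between libraries. In litter 3, for example, ENSMUST00000047363 held 0.0406 TPM in the ErbB4myeKO library and 11.8 TPM in the ErbB4FF library, while ENSMUST00000165316 held 14.2 and 0.00629 TPM. With ENSMUST00000047363 taken alone the log2 fold change was 0.61 with an SE of 0.92. Of the 31-base words of that transcript 17.8% occur in transcripts of other genes.

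The next members in that direction did not pass. Mitochondrial Yars2 ranged from 4.44 to 7.48 TPM (median 7.08) in libraries labelled ErbB4myeKO and from 2.10 to 8.96 TPM (median 5.81) in those labelled ErbB4FF, with a log2 fold change of 0.35 (SE 0.16, exact permutation p = 0.0938). Eprs, a fused enzyme for glutamate and proline, ranged from 13.3 to 33.8 TPM (median 18.6) and from 9.77 to 29.99 TPM (median 17.4), with a log2 fold change of 0.28 (SE 0.14, exact permutation p = 0.156). Hars ranged from 31.6 to 36.6 TPM (median 34.2) and from 23.3 to 39.3 TPM (median 31.5), with a log2 fold change of 0.16 (SE 0.09, exact permutation p = 0.156). Each of these 3 was above its littermate in 5 of 6 litters, and the groups overlapped. Without litter 2 the log2 fold change of Eprs was 0.16 and that of Hars 0.094.

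**Figure D2:**
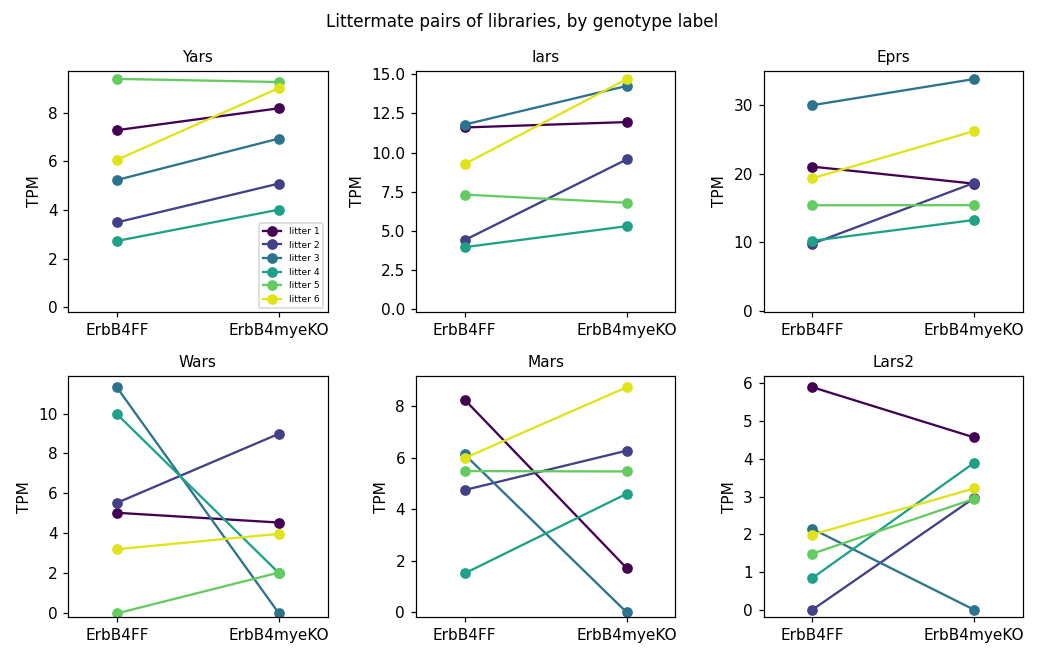
TPM of Yars, Iars and Eprs (upper row) and of Wars, Mars and Lars2 (lower row) in the ErbB4FF and ErbB4myeKO libraries of each litter, joined by 1 line per litter. Yars rises along 5 of 6 lines, from 6.06 to 9.02 TPM in litter 6, whereas the lines of Wars cross, from 11.3 TPM to almost 0 in litter 3 and from 0 to 2.04 TPM in litter 5.

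Among members with a lower mean in libraries labelled ErbB4myeKO, the smallest limma p belonged to mitochondrial Tars2, which ranged from 0 to 3.45 TPM (median 1.16) against 0.296 to 3.86 TPM (median 1.98) and had a log2 fold change of -0.34 (SE 0.22, exact permutation p = 0.219). Aimp1, which holds the multisynthetase complex together and is also cut to a secreted cytokine, ranged from 17.1 to 36.0 TPM (median 21.9) against 18.7 to 35.3 TPM (median 25.9), with a log2 fold change of -0.16 (exact permutation p = 0.438). All these ranges overlapped. The mitochondrial arginine enzyme Rars2 ranged from 1.14 to 5.46 TPM (median 3.70) against 2.65 to 6.88 TPM (median 4.04), with a log2 fold change of -0.26 (exact permutation p = 0.375). The cysteine enzyme Cars2 ranged from 0 to 3.46 TPM (median 1.51) against 0.612 to 3.55 TPM (median 1.77), with a log2 fold change of -0.32 (exact permutation p = 0.281). The histidine enzyme Hars2 ranged from 2.34 to 4.26 TPM (median 2.73) against 2.71 to 4.22 TPM (median 3.31), with a log2 fold change of -0.17 (exact permutation p = 0.406). Single litters set much of these values: without litter 3 the log2 fold change was -0.017 for Aimp1, -0.071 for Cars2 and -0.053 for Hars2, without litter 4 it was -0.069 for Rars2, and without litter 1 it was -0.19 for Tars2. Of these 5, 4 encode mitochondrial enzymes, and none passed the test. The abundant Rars, Kars and Aars lay at -0.03 (SE 0.07), -0.07 (SE 0.08) and 0.04 (SE 0.08) on the log2 scale, the narrowest errors of the family.

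Over all roles 19 of 32 members (59.4%) had a mean log2 ratio above 0, beside 49.8% of all genes. By role, the cytosolic enzymes had a median log2 fold change of 0.11, with 13 of 18 above 0, and the mitochondrial enzymes one of -0.14, with 5 of 12 above 0. All genes tested had a median of -0.00. Members that were higher in at least 5 of 6 litters numbered 9 of 32 (28.1%), beside 13.9% of all genes, and 1 member was lower in as many litters (3.13%), beside 14.3%. All 9 were higher in litter 6, the litter in which Lyz2 was higher, not lower, in the library labelled ErbB4myeKO. With litter 6 left out, an alternative chosen after the data were seen, 9 of 32 were higher in at least 4 of the 5 litters left (28.1%), beside 20.8% of all genes, and 0 in all 5, beside 3.90%. With litter 3 left out instead, 13 of 32 were higher in at least 4 of 5 (40.6%), beside 23.7%, and 3 in all 5 (9.38%), beside 5.24%. In the lower direction 2 of 32 (6.25%) were counted in at least 4 of 5 under either omission, beside 21.8% of genes without litter 6 and 21.9% without litter 3. The members were measured in the same libraries and are not independent of each other, and no test of the list was made. None was higher or lower in all 6 litters, beside 2.51% and 2.31% of all genes. Enzymes of the multisynthetase complex had a median of 0.10 (8 genes), class I enzymes 0.16 (14 genes) and class II enzymes 0.04 (15 genes), where the classes are the families of catalytic fold.

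The cytosolic median came from 3 litters. It was 0.36 in litter 2, 0.18 in litter 4 and 0.33 in litter 6, and between -0.08 and -0.00 in litters 1, 3 and 5. In the 10 cytosolic enzymes listed as ATF4 targets it was 0.40, 0.26 and 0.45 in litters 2, 4 and 6, in the other 8 cytosolic enzymes 0.22, 0.14 and 0.16, and in the ATF4 targets outside the synthetases 0.23, -0.06 and 0.40. No difference between these lists was tested. Over all litters 8 of the 10 listed enzymes lay above 0 with a median of 0.14, beside 0.09 in the other 8 cytosolic enzymes. The 5 genes with the ATF4 letters printed above had log2 fold changes of 0.04 (Aars), 0.11 (Gars), 0.38 (Iars), 0.13 (Tars) and 0.34 (Yars). Eprs and Sars, the listed genes whose window lacked the letters, lay at 0.28 and 0.15. Whether the letters go with the fold change was not tested. The 6 markers of proliferating cells that passed the filter had median log2 ratios of 0.77 in litter 2 and 0.48 in litter 6, and between -0.28 and 0.06 in the others. Over all litters 3 of the 6 had a mean above 0 and 3 below. Mki67 lay at 0.89, 0.76 and 0.53 in litters 2, 4 and 6, while the other 5 lay below 0 in litter 4. Macrophage markers had list medians of -0.23, -0.22 and 0.09 in litters 2, 4 and 6, and single ones went both ways: Fcgr1 was lower in 6 of 6 litters (-2.20, -1.15 and -0.70 in those 3) and Mertk higher in 6 of 6 (0.27, 0.05 and 0.47), each with an exact permutation p of 0.0312. Of all genes tested 2.31% were lower and 2.51% higher in 6 of 6 litters. Of the 2 dendritic cell markers that passed the filter, Xcr1 lay at 1.32, 1.49 and 0.66 in litters 2, 4 and 6 and Clec9a at -3.14, 0.06 and 1.43. These single markers were chosen after their values were seen, and the part of any of them in the synthetase values was not tested.

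**Figure D3:**
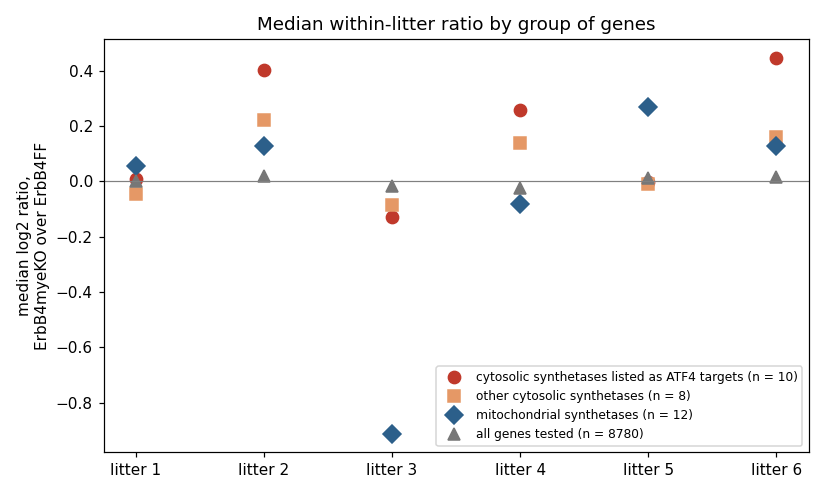
Median within-litter log2 ratio (ErbB4myeKO over ErbB4FF, TPM + 0.5) of the 10 cytosolic enzymes listed as ATF4 targets (circles), the other 8 cytosolic enzymes (squares), 12 mitochondrial enzymes (diamonds) and 8780 genes tested (triangles) in each of 6 litters. The circles lie at 0.40, 0.26 and 0.45 in litters 2, 4 and 6 and near 0 or below in the others, and the mitochondrial median falls to -0.91 in litter 3.

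The mitochondrial median rested on litter 3. In the ErbB4myeKO library of that litter 8 members were listed at 0 TPM, 7 of them mitochondrial, against 0 to 2 in each of the other 11 libraries, and it had the fewest genes above 0, 10214 against 10910 to 12985. The median of the mitochondrial enzymes was -0.91 in litter 3 and lay between -0.08 and 0.27 in the other litters, and without litter 3 it was 0.03 over the litters left. No direction can therefore be given for the mitochondrial enzymes.

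Wars, the interferon-induced member, varied most. Wars (ENSMUSG00000021266, chr12:108860030-108894174) measured 4.55, 8.99, 7.02e-06, 2.02, 2.04 and 3.98 TPM in libraries labelled ErbB4myeKO and 5.03, 5.53, 11.3, 9.97, 0 and 3.21 TPM in those labelled ErbB4FF. It was almost absent from the ErbB4myeKO library of litter 3 and listed at 0 in the ErbB4FF library of litter 5, and its littermate was at 11.3 and 2.04 TPM. Its log2 fold change of -0.58 had an SE of 0.81 (limma p = 0.494, exact permutation p = 0.719), and without litter 3 it turned to 0.22 (limma p = 0.713). The SD of its within-litter log2 ratio was 2.41, the largest of the members. The table holds 1 of the 7 annotated transcripts of Wars, and 98.4% of the 31-base words of that transcript occur in other Wars transcripts. The value is that of 1 isoform, and whether the gene as a whole moved was not measured.

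A wide spread was shared by Mars, the methionine enzyme, Lars2, the mitochondrial leucine enzyme, and Farsb, a subunit of the phenylalanine enzyme. Mars measured 1.72, 6.27, 0, 4.60, 5.46 and 8.73 TPM in libraries labelled ErbB4myeKO and 8.25, 4.74, 6.13, 1.51, 5.48 and 5.98 TPM in those labelled ErbB4FF. Lars2 measured 4.56, 2.96, 0, 3.90, 2.94 and 3.21 TPM against 5.90, 0, 2.15, 0.840, 1.49 and 1.99 TPM. Farsb fell to 0.359 TPM in the ErbB4myeKO library of litter 2, with 8.19 TPM in its littermate, a log2 ratio of -3.34. Together with Wars these were the members whose log2 ratio had an SD over 1, 4 of 32 (12.5%) beside 11.7% of all genes. In each the principal transcript shared at least 95% of its 31-base words with another annotated transcript. The 16 members that share as much had a median SD of 0.70 and a median mean of 4.81 TPM, and the 16 that share less had a median SD of 0.26 at a median of 10.5 TPM, with 0 over 1. Level moved with sharing, as the 11 members with a mean of at least 10 TPM had a median SD of 0.23, and the part of each in the spread was not tested.

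**Figure D4:**
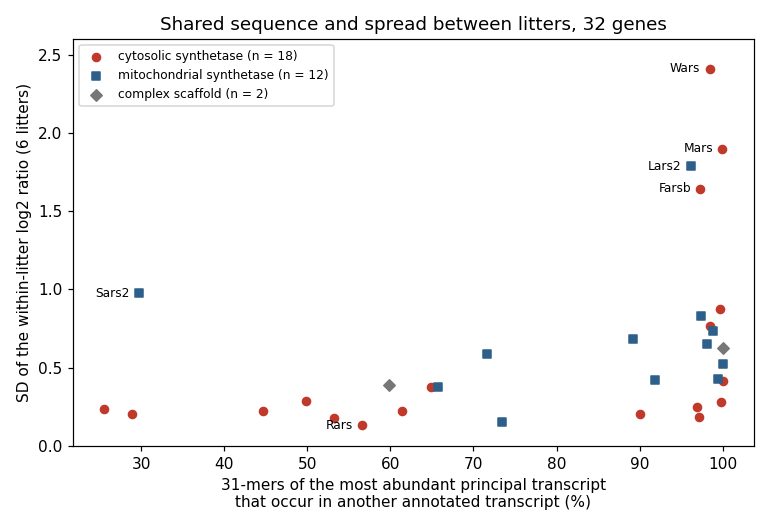
SD over 6 litters of the within-litter log2 ratio (vertical axis) against the percentage of 31-base words of the most abundant principal transcript that occur in another annotated transcript (horizontal axis), with 1 point for each of 32 members by role. The 4 members with an SD over 1, Wars, Mars, Lars2 and Farsb, lie at 95% or more, and Rars has the smallest SD.

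Over the 12 libraries, the genes with at least 10 TPM whose log2 values followed those of Wars most closely were Pml (Pearson r = 0.91), Nadk (0.88), Ap5b1 (0.85), Poldip3 (0.85) and Adam9 (0.84), chosen as the highest of 4216 genes. The r is a description over libraries that share litters and hold 2 near-zero values of Wars, and says nothing of shared control. Fars2, the mitochondrial phenylalanine enzyme, changed sign with the way transcripts were summed. It ranged from 1.32 to 4.69 TPM (median 3.17) in libraries labelled ErbB4myeKO and from 2.01 to 4.20 TPM (median 2.88) in those labelled ErbB4FF. Its 3 principal transcripts together gave a log2 fold change of 0.05 (SE 0.18), and the most abundant alone gave -0.26 (SE 0.41).

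**Figure D5:**
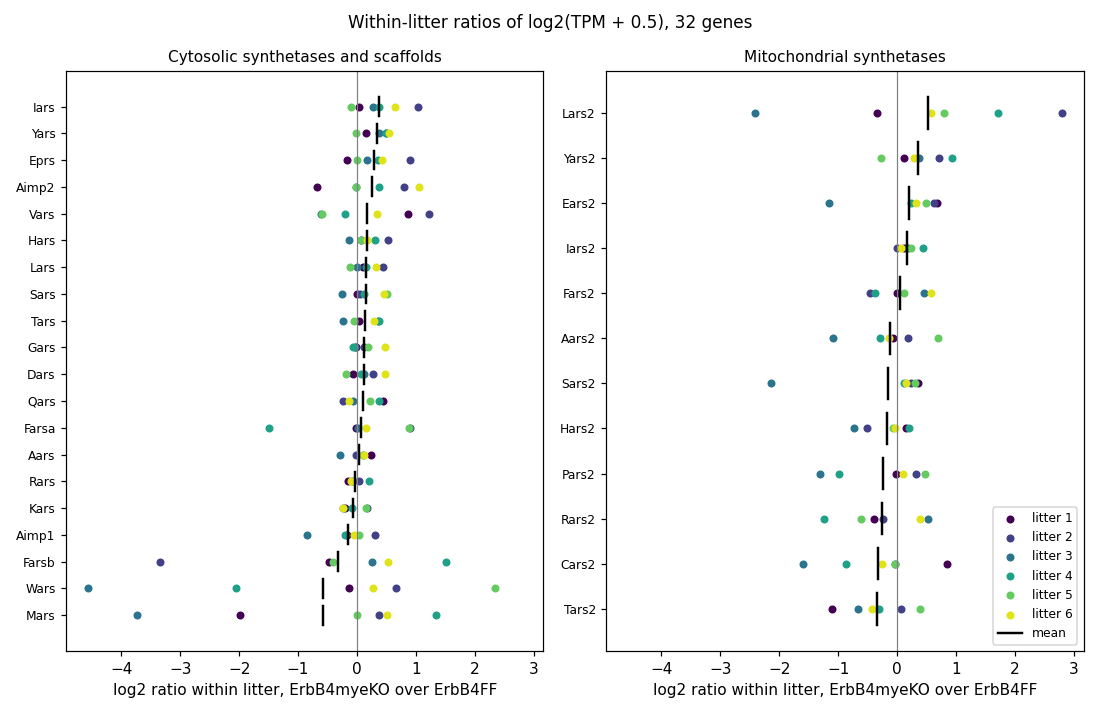
Within-litter log2 ratio (ErbB4myeKO over ErbB4FF, TPM + 0.5, horizontal axis) of the 32 genes tested, with 1 point per litter and a bar at the mean, for cytosolic enzymes and scaffolds (left) and mitochondrial enzymes (right). Points of Wars run from -4.56 to 2.35 and those of Rars from -0.15 to 0.21.

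Genes that work around tRNA charging were read the same way. Of 15 partners in the cytosol, such as elongation and editing factors, 11 passed the filter, with 1 at an unadjusted p under 0.05 in the higher direction (9.09%, beside 3.83% of all genes) and 0 in the lower (beside 4.38%). That gene was Dtd1, which removes D-amino acids from tRNA (log2 fold change 0.26, SE 0.11, adjusted p = 0.603, exact permutation p = 0.0625). The complex scaffold Eef1e1 followed at 0.43 (SE 0.19, exact permutation p = 0.0625). In the other direction the smallest limma p were those of Prorsd1 (-0.27, limma p = 0.166, exact permutation p = 0.312) and of the elongation factor Eef1a1 (-0.04, limma p = 0.451, exact permutation p = 0.375). Of 14 mitochondrial partners 11 passed and 0 were under 0.05 in either direction, beside 8.21% of all genes. Their smallest limma p were those of Mto1 (0.26, exact permutation p = 0.250) and Gatc (0.16, exact permutation p = 0.281), which act in tRNA modification and in making glutamine tRNA, and of the translation factors Gfm2 (-1.20, exact permutation p = 0.250) and Gfm1 (-0.26, exact permutation p = 0.469).

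None of the ATF4 targets outside the synthetases passed adjustment. Of 22 that passed the filter 3 were higher at an unadjusted p under 0.05 (13.6%, beside 3.83% of all genes) and 1 was lower (4.55%, beside 4.38%), with a median log2 fold change of 0.07. Asns, which makes asparagine, had a mean of 22.3 ± 16.0 TPM in libraries labelled ErbB4myeKO and 16.2 ± 12.1 TPM in those labelled ErbB4FF (SD, n = 6), a log2 fold change of 0.50 (SE 0.18, adjusted p = 0.603, exact permutation p = 0.0625) and a higher value in 5 of 6 litters. Slc7a11, the cystine transporter, was higher in 6 of 6 litters, as were 2.51% of all genes. Its log2 fold change was 0.99 (SE 0.38, adjusted p = 0.603, exact permutation p = 0.0312, the smallest possible). Both had their widest gap in litter 2, with log2 ratios of 1.39 and 3.04. Nupr1, a stress-induced chromatin protein, was lower in 6 of 6 litters (-0.40, SE 0.10, adjusted p = 0.603, exact permutation p = 0.0312), as were 2.31% of all genes. Atf3 lay at -0.27 (exact permutation p = 0.0625), and Atf4 itself at 0.07 (SE 0.06, exact permutation p = 0.219). The transcript of Atf4 does not measure its translation.

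The 18 interferon gamma targets had a median log2 fold change of -0.06, with 0 higher (beside 3.83% of all genes) and 3 lower (16.7%, beside 4.38%) at an unadjusted p under 0.05. The smallest limma p were those of the immunoproteasome subunit Psmb8 (-0.22, SE 0.07, exact permutation p = 0.0625) and the chemokine Cxcl10 (-0.18, SE 0.06, exact permutation p = 0.0312). In the other direction they were those of Ciita, which drives MHC class II genes (0.29, SE 0.13, exact permutation p = 0.0938), and the chemokine Cxcl9 (0.21, SE 0.10, exact permutation p = 0.125). The synthetases and these targets were compared in the same 12 libraries, and no test between the lists was made.

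The labels could not be checked in every litter. The deleted gene Erbb4 was at 0.280 to 0.852 TPM in libraries labelled ErbB4myeKO and 0.372 to 0.716 TPM in those labelled ErbB4FF, higher in the former in 4 of 6 litters (exact permutation p = 0.250), although its transcript level does not show whether the floxed part is present. Lyz2, whose locus carries Cre, was lower in the library labelled ErbB4myeKO in litters 1 to 5 and higher in litter 6 (log2 ratio 1.43), so directions here follow the labels. Macrophage markers summed to between 4981 and 14835 TPM, and lymphocyte and erythroid markers to at most 2.47 and 0.981 TPM. Dendritic cell markers summed to 8.95 to 33.4 TPM in libraries labelled ErbB4myeKO and 4.47 to 25.5 TPM in those labelled ErbB4FF, with 2 of 7 over 1 TPM on average and 2 at 0 in every library. Neutrophil markers reached 41.3 to 375 TPM against 42.5 to 186. The 5 that passed the filter had a median log2 ratio of 1.02 in litter 6 and -0.95 in litter 3, where 40% of them were higher. Of these 5, 1 was higher at an unadjusted p under 0.05 (20%, beside 3.83% of all genes) and 0 were lower (beside 4.38%). The part of neutrophil markers in the synthetase values of those litters was not tested.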

How the data were processed

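RNA from 12 cultures of M1-activated BM-Mɸs was sequenced, and the authors pseudoaligned single-ended reads with kallisto and deposited TPM of the principal transcripts in the APPRIS annotation. Versions of kallisto and of the transcriptome are not given in the sources used here, and the submitters' processing notes also name CASAVA, sleuth and mm10. The deposited table also holds the authors' fold ratios, p-values and sleuth statistics, which were not used. Repeated lines (405 of 29213) were dropped and TPM summed per gene, 43 transcripts for the 38 members. Values of 1 member are not reported here. Depth per library is unknown from TPM, so no counting interval is given and precision rests on the spread between litters.

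Genes averaging 1 TPM or more were tested on log2(TPM + 0.5) by limma (version 3.58.1, R 4.3.3), using a moderated variance with a trend and a block for litter, and p-values were adjusted by Benjamini-Hochberg over 8780 genes. Fold changes on this scale understate those of low genes. Single genes were also tested by exact permutation over 64 within-litter swaps. The fit was also run on simulated data, with changes larger than that of any member in the reported fit. That run does not show how the fit performs on changes of the size seen here. Groups and litter numbers are those on the labels, and littermates are paired by the study's design. After each gene's mean within its genotype group was removed, the correlation of littermates over 8780 genes was between 0.273 and 0.774. Over the 32 members it was between -0.0516 (litter 2) and 0.579 (litter 6). No correlation between libraries of different litters was computed, so these values have no baseline and do not test the pairing. Shared 31-mers and positions are from GENCODE M21 (GRCm38), in which all 28808 transcripts were found. Python 3.11.15, numpy 2.4.6, pandas 2.3.3 and matplotlib 3.10.9 were used.

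The members and gene lists were chosen with earlier results of these data known. The genes named were Wars, the 5 members with the smallest p in each direction, the 3 with the highest and the 3 with the lowest mean, the one with the largest SD of the log2 ratio, those whose sum and most abundant transcript differ in sign, and the 2 genes with the smallest p in each direction of each related list. Mars, Lars2, Farsb, Tars, the pairs of enzymes and the levels of Gars, Hars and Dars were chosen after their values were seen. Atf4 was also named outside this rule. Alternatives were no block, pseudocounts of 0.1 and 1, a filter at 0 or at 5 TPM, median-ratio rescaling, no trend, the most abundant transcript alone, a covariate from 4 Y-linked genes in place of sex, which the labels do not give, and each litter left out.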

Additional observations from a re-analysis of the deposited data

Results flagged for a closer look

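In 76 groups of 6 libraries (38 members in each genotype), 6 had a library set apart from the other 5 by a gap over Dixon's 95% critical share of the range. For normally distributed values chance gives this in about 1 in 20 groups. TPM cannot fall below 0 and need not be normal, so the share that chance gives here is not known. Cars was at 2.24 TPM in the ErbB4myeKO library of litter 6, with the next at 0.990 TPM. Lars2 was at 0 TPM in the ErbB4myeKO library of litter 3, with the next at 2.94 TPM, and at 5.90 TPM in the ErbB4FF library of litter 1, with the next at 2.15 TPM. Mars2 was at 0.325 TPM in the ErbB4myeKO library of litter 6, with the next at 0.161 TPM. Vars2 was at 0.392 TPM in the ErbB4myeKO library of litter 1 and at 0.399 TPM in the ErbB4FF library of litter 6, with the next at 4.36e-05 and 3.62e-05 TPM. Cars, Mars2 and Vars2 had a mean under 1 TPM and were left out of the reported fit.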

How the results depend on the processing

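Under no alternative did a member reach an adjusted p under 0.05, and 1 other gene did so without litter 3. The number of members higher in libraries labelled ErbB4myeKO at an unadjusted p under 0.05 was 2, and it was 0 with no replicate block for the pairing of littermates, 1 with no filter, 1 with the most abundant transcript alone and 1 with the Y-linked covariate. Genes at that level numbered 721 with the block and 75 without it (40 higher and 35 lower). With 1 litter left out the count ran from 0 to 4, and the number of genes at an adjusted p under 0.05 from 0 to 1. Yars passed in each of these fits but those with no block and without litter 6, and Iars lost its call in the 4 fits above and without litters 2, 3, 4 or 6. No member was lower at that level under any alternative. The median log2 fold change of cytosolic enzymes was between 0.07 and 0.16 with 1 litter left out. That of mitochondrial enzymes was between -0.19 and 0.03, and 0.26 for the few with a mean of at least 5 TPM. Wars lay between -1.17 and 0.22 with 1 litter left out, and turned to 0.22 without litter 3. Fars2 lay between -0.054 and 0.15, and turned to -0.26 with the most abundant transcript alone, -0.031 without litter 3 and -0.054 without litter 6. Without litter 3, Lars2 stood at 1.11 and Ears2 at 0.47, and both then had an unadjusted p under 0.05. The cause of these moves was not tested. Littermates had nearly the same Y-linked values, so beside the litter block that covariate could not adjust for sex, and a call lost under it says nothing of sex. Between litters the Y-linked mean of log2 values differed, at 2.06 to 2.66 in litters 1 to 4 and -0.878 to -0.786 in litters 5 and 6. The part of sex in the differences between litters was not tested.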
